A study of Mus musculus with 6 samples.

Results

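A set of 10 genes of the intercalated disc was followed in mouse hearts in which a base editor had been aimed at Camk2d: Dsp, Pkp2, Jup, Dsg2, Dsc2, Cdh2, Ctnna3, Gja1, Tjp1 and Des. They were taken by symbol as genes of the desmosome, the adherens junction and the main ventricular gap junction, with the scaffold ZO-1 and desmin. All 10 were found among the 35976 genes counted, and all 10 passed the filter on low counts. The edited group held 3 heart libraries from wild-type (WT) mice treated with AAV-MYL2-TadA8e-Sauri-U6-Camk2d sgRNA7, and the control group held 3 heart libraries from WT mice with no treatment. AAV is an adeno-associated virus, TadA8e an evolved adenine deaminase joined to a Cas9 named Sauri, and sgRNA7 a guide against the donor splice site of Camk2d intron 7. MYL2 names a promoter active in ventricular muscle, so the editor was aimed at muscle cells while the RNA came from heart tissue with all its cell types. Virus, editor and edit were absent from every control and therefore form 1 contrast, which asks how heart RNA differs after editing of Camk2d. Age, sex, dose, interval and part of the heart are not stated in the labels. They also do not say that each library is a separate animal, so p-values measure the spread between these libraries, which may be technical.

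The intercalated disc joins heart muscle cells end to end. Desmosomes anchor the desmin filaments of neighbouring cells to each other, adherens junctions anchor their contractile actin filaments, and gap junctions let current and small molecules pass; in mammalian hearts the first pair mingle in a mixed junction, the area composita. Mutations in several desmosome genes cause arrhythmogenic cardiomyopathy in humans. CaMKII, the calcium-dependent kinase whose main cardiac form Camk2d encodes, is found at the disc, where it phosphorylates the sodium channel.

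Libraries held 17062412 to 23097998 counts. Camk2d stood at 138.2, 129.8 and 163.8 CPM in edited hearts, against 226.4, 219.6 and 224.3 CPM in control hearts, a log2 change of -0.64 (SE 0.075, adjusted p = 0.000476, edgeR's quasi-likelihood test). CPM are counts scaled to 1e+06 per library with TMM factors. Of 8 heart muscle markers, not all of them particular to the ventricle, 4 fell and 0 rose. Over all tested genes 4.74% fell and 4.93% rose at an adjusted p under 0.05 in edgeR. The summed levels of these 8 markers were 65640 to 69780 CPM in edited hearts and 76790 to 80010 CPM in control hearts. Atrial markers set some libraries apart: their sum was 1883, 1272 and 2824 CPM in edited 1, 2 and 3, and 61.9, 1992 and 43.8 CPM in control 1, 2 and 3. Of the 6 markers, Myl7, Nppa, Myl4, Sln and Dkk3 were high in the edited libraries and control 2 alike, but Bmp10 was at 101.8 CPM in control 2, against 0 to 0.112 CPM in the edited libraries and the other controls. In such bulk samples, fewer cells of a type and less RNA per cell cannot be told apart.

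None of the 10 disc genes passed the test between edited and control hearts. Of the 10, 0 were called by edgeR's quasi-likelihood test at an adjusted p under 0.05, against 9.66% of the 14879 genes tested. The 0 members higher stand beside 4.93% of genes higher (733), and the 0 members lower beside 4.74% lower (705). Upper-quartile scaling gave 849 genes higher and 531 lower. Cdh2 was the 1 member with an unadjusted p under 0.05, which 24.4% of tested genes had. DESeq2's Wald test called 0 members, beside 1269 of the 14879 genes. The 2 members called by limma voom with quality weights, Cdh2 and Des, stand beside 2398 of the 14879 genes. In 0 of the 10 did the libraries of the groups lie apart without overlap, against 29.3% of tested genes. The median log2 change of the members was -0.052, beside 0.001 for tested genes, and their median absolute change was 0.068, beside 0.117. Genes with a mean level inside the members' own range numbered 6208, with a median log2 change of -0.031, a median absolute change of 0.083 and 11.3% called. Of these 6208 genes, 212 were called higher and 489 lower, and in 33.1% the libraries of the groups lay apart.

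**Figure D1:**
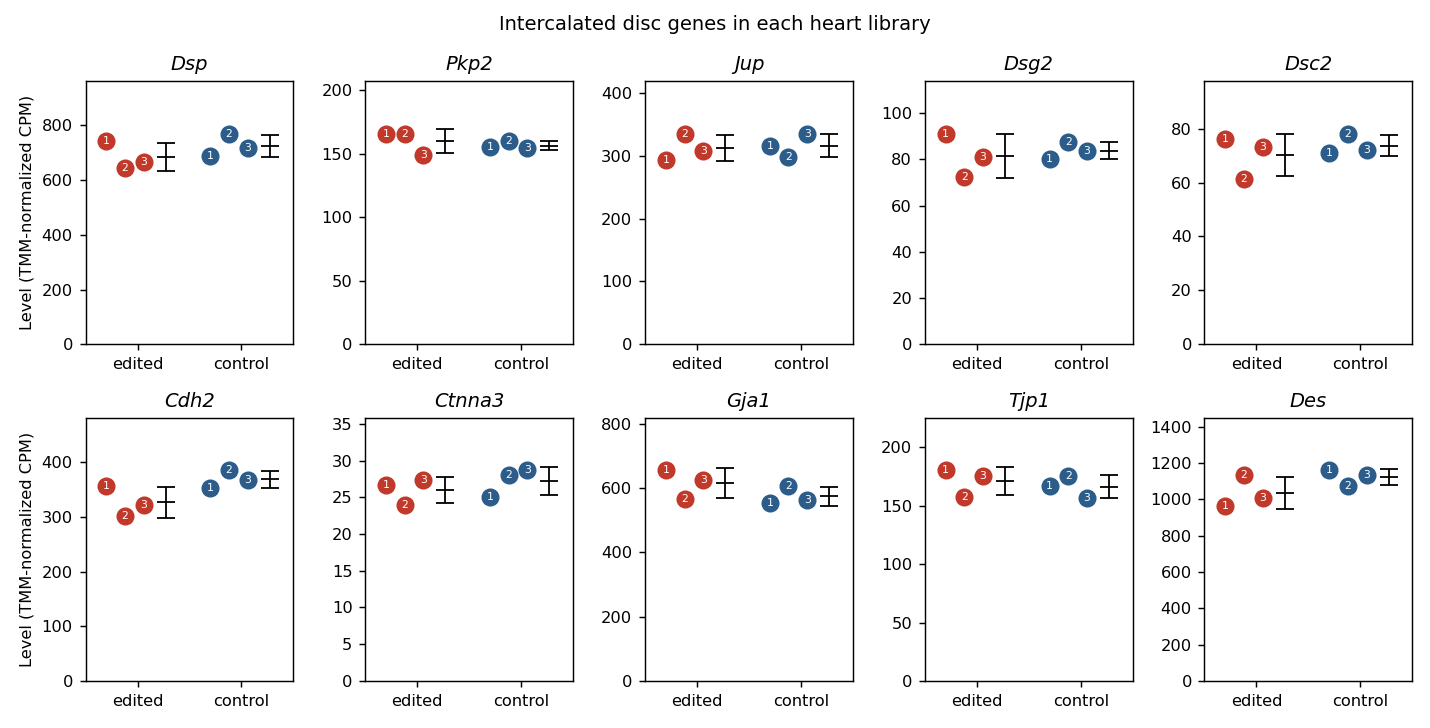
Level of each disc gene in TMM-normalized CPM (vertical axis, from 0) in the 3 edited libraries (red, left) and the 3 control libraries (blue, right), numbered by replicate, with the mean and SD beside them. The groups overlap in all 10 genes, Cdh2 included, whose edited libraries at 301.8 to 356.7 CPM meet control libraries at 353.3 to 384.9 CPM.

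A gene's 95% interval, taken alone, is its log2 change plus or minus a t quantile times the SE. That SE was derived from the quasi-likelihood test against no change, so the interval only approximates the fold changes that the fit would not reject. The 10 intervals lay between 0.805-fold, the lower end for Cdh2, and 1.17-fold, the upper end for Gja1. Camk2d, by comparison, had an interval of 0.576- to 0.721-fold. A missed threshold does not show that the levels were equal.

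**Figure D2:**
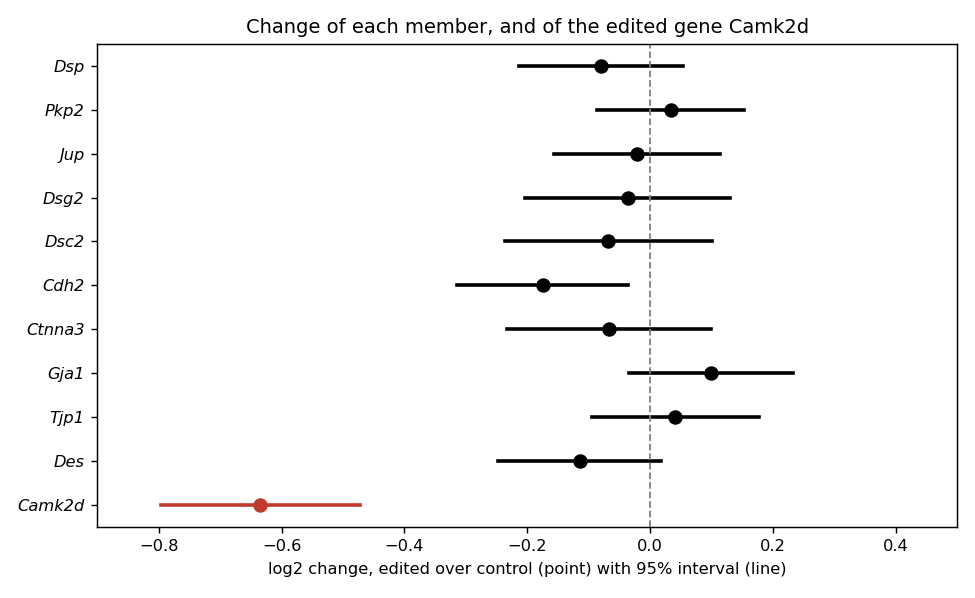
Log2 change, edited over control (horizontal axis), of the 10 disc genes and of Camk2d, each as a point with its 95% interval from the quasi-likelihood fit. The members' estimates lie between -0.175 for Cdh2 and 0.099 for Gja1, while Camk2d lies at -0.635.

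Among the members, no gene of the desmosome plaque and none of its cadherins passed the test. Dsp, on chromosome 13 from 38151082 to 38198577 (mm10, plus strand), encodes desmoplakin, which ties the plaque to desmin. It was at 744.3, 646.3 and 666.5 CPM in edited 1, 2 and 3, against 688.7, 770.1 and 716.0 CPM in control 1, 2 and 3. The highest edited library stood above 2 of the 3 control libraries, and the log2 change was -0.080 (SE 0.062, adjusted p = 0.479, edgeR). Pkp2 (chromosome 16, 16213345 to 16272712, plus strand) encodes plakophilin-2, an armadillo protein that gathers desmoplakin at the plaque. Its level was 165.5, 165.8 and 148.8 CPM in edited hearts, against 155.0, 160.2 and 154.2 CPM in control hearts. The 3 control values fell inside the range of the edited ones (fold 1.02, 95% interval 0.941 to 1.11). Jup (chromosome 11, 100368856 to 100397805, minus strand) encodes plakoglobin, the armadillo protein that desmosomes and adherens junctions share. It was at 293.6, 334.7 and 308.1 CPM in edited hearts and at 316.1, 298.5 and 335.6 CPM in control hearts, ranges that nearly coincide (fold 0.985, 95% interval 0.898 to 1.08).

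Dsg2 and Dsc2 encode desmoglein-2 and desmocollin-2, the cadherins whose outer parts bind across the gap between cells, and both lie on chromosome 18 (Dsg2 from 20558074 to 20604526, plus strand, and Dsc2 from 20030633 to 20059554, minus strand). Dsg2 was at 91.12, 72.21 and 81.13 CPM in edited hearts, against 80.02, 87.43 and 83.68 CPM in control hearts. Edited hearts held both its highest and its lowest value. Dsc2 was at 76.16, 61.29 and 73.37 CPM in edited hearts, against 71.05, 78.16 and 71.94 CPM in control hearts, with edited 2 the lowest of the 6. Their fold changes were 0.974 (95% interval 0.868 to 1.09) for Dsg2 and 0.954 (0.849 to 1.07) for Dsc2. Without edited 2 the estimates of both genes turned from lower to higher, to log2 0.042 for Dsg2 and 0.020 for Dsc2.

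The make-up of the desmosome was read per length. TPM, which are counts divided by exon length and scaled to a total of 1e+06 per library, allow levels of different genes to be set side by side, and are used here for that alone. Of the summed TPM of the 5 desmosome genes, Dsp held 32.8 ± 1.7% in edited and 33.9 ± 1.3% in control hearts (SD, n = 3 each). Jup held 27.6 ± 2.4% in edited and 27.3 ± 1.8% in control hearts, and Pkp2 26.0 ± 1.1% in edited and 24.8 ± 0.48% in control hearts. The cadherins took far smaller shares, Dsc2 7.07 ± 0.75% in edited and 7.25 ± 0.27% in control hearts, and Dsg2 6.62 ± 0.64% in edited and 6.65 ± 0.15% in control hearts. Plaque RNA exceeded cadherin RNA several-fold in each of the 6 libraries.

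Among the adherens junction genes, Cdh2 stood nearest to a call. Cdh2 (chromosome 18, 16588877 to 16809246, minus strand) encodes N-cadherin, the classical cadherin of heart muscle. It was at 356.7, 301.8 and 321.1 CPM in edited hearts, against 353.3, 384.9 and 368.1 CPM in control hearts. Edited 2 and 3 lay below every control library and edited 1 above control 1 alone. The log2 change was -0.175 (SE 0.065), or 0.886-fold with an interval of 0.805 to 0.975, at an unadjusted p of 0.0169 and an adjusted p of 0.108 in edgeR. Over 17 alternatives its log2 change ran from -0.244 to -0.122 and its adjusted p from 0.0221 to 0.394. It passed the threshold in 4 of them: without edited 1 (adjusted p = 0.0221), with the trend on transcript length removed (0.0316), with limma voom with quality weights (0.0400) and with no filter (0.0470).

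Ctnna3 (chromosome 10, 63430098 to 65003667, plus strand) encodes alpha-T-catenin, which links N-cadherin to actin and binds plakophilin-2 at the area composita. It was the scarcest member, per length too, at 26.69, 23.98 and 27.36 CPM in edited hearts, against 25.06, 28.02 and 28.66 CPM in control hearts. These ranges overlap over most of their width (fold 0.954, 95% interval 0.851 to 1.07). Alpha-E-catenin, from Ctnna1, is the commoner alpha-catenin here: Ctnna1 was at 910.1, 857.8 and 853.8 CPM in edited hearts, against 985.0, 1062 and 1012 CPM in control hearts. Ctnna1 fell, by 0.22 on the log2 scale (SE 0.051, adjusted p = 0.0152, edgeR). The call was lost without edited 3 (adjusted p = 0.0685) or control 3 (0.0925), and with replicate number as a block (0.0578). Ctnna3 made up 2.89 ± 0.20% of the CPM of both genes in edited hearts and 2.60 ± 0.14% in control hearts (SD, n = 3 each), and 2.81 ± 0.19% of their TPM in edited and 2.53 ± 0.14% in control hearts. The CPM difference of 0.290 percentage points gave p = 0.2 in a two-sided exact permutation test over 20 arrangements, where 3 libraries against 3 cannot go below 0.1.

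Gja1 (chromosome 10, 56377300 to 56390419, plus strand), the gene of connexin 43 and so of the main gap junction of ventricular muscle, had the highest estimate of the 10. It was at 655.1, 564.5 and 624.8 CPM in edited hearts, against 552.5, 607.0 and 562.7 CPM in control hearts. Edited 1 and 3 exceeded all controls, but edited 2 fell among them. The log2 change was 0.099 (SE 0.062), 1.07-fold with an interval of 0.977 to 1.17, and the adjusted p was 0.358 in edgeR (0.0784 to 0.973 over 17 alternatives). Gja1 held 80.80, 77.52 and 79.15% of the summed CPM of 6 connexin genes (with Gja3, Gja4, Gja5, Gjc1 and Gjd3) in edited hearts, and 78.91, 79.92 and 79.33% in control hearts. The share differed by -0.228 percentage points (p = 0.9, two-sided exact permutation test), and the sign turned without edited 2 (0.590) or control 2 (0.0383). Per length the share was 77.9 ± 1.9% in edited and 77.9 ± 0.65% in control hearts (SD, n = 3 each).

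Tjp1 (chromosome 7, 65296165 to 65527808, minus strand) encodes ZO-1, a scaffold that binds the tail of connexin 43. It was at 180.3, 157.3 and 175.9 CPM in edited hearts, against 166.9, 175.7 and 156.7 CPM in control hearts, which overlap (fold 1.03, 95% interval 0.936 to 1.13). Des (chromosome 1, 75360292 to 75368579, plus strand) encodes desmin, the muscle intermediate filament that ends at the desmosome. Its level was 962.6, 1135 and 1007 CPM in edited hearts, against 1159, 1071 and 1133 CPM in control hearts. Edited 1 and 3 lay below every control, while edited 2 lay above control 2 and 3. The log2 change was -0.115 (SE 0.062), 0.923-fold with an interval of 0.842 to 1.01, and the adjusted p was 0.277 in edgeR. Without edited 2 Des was called at an adjusted p of 0.0293 (log2 -0.187), and limma voom with quality weights called it at 0.0493. Of its exon bases, 7.24% also belong to the antisense gene Gm15179, as 5.72% of those of Dsg2 do to Gm16090 and 0.501% of those of Tjp1 to Gm33068, and the counting is not stated to use strand.

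Des and Gja1 were the most abundant members per length. Their estimates had opposite signs, but neither gene passed the test. The 250 bases before their RefSeq starts are shown, 5′ to 3′ on the plus strand, from RefSeq on GRCm38.p6, the assembly behind mm10. A link between these bases and the RNA levels was not tested. Capitals mark any match, on either strand, to TATAAA, the GC box GGGCGG, the E-box CANNTG, the GATA motif GATAA, the AP-1 motif TGANTCA or the MEF2 consensus.
Des, chr1:75360042-75360291: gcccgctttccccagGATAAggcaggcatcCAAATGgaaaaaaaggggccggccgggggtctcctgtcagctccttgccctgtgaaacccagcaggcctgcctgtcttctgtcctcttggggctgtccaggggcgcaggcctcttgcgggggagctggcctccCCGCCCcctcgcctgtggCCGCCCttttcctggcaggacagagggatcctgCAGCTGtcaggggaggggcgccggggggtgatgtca
Gja1, chr10:56377050-56377299: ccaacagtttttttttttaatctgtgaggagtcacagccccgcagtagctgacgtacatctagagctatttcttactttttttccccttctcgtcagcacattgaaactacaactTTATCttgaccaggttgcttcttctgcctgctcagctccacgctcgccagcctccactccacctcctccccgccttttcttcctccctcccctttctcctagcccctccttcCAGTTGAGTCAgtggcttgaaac
The Des window holds 2 GC boxes, 2 E-boxes and 1 GATAA, at 67.2% G and C. The Gja1 window holds 0 GC boxes, 1 GATAA, and 1 E-box that overlaps 1 AP-1 motif, at 50.0% G and C. Neither window holds TATAAA or the MEF2 consensus. Across 32851 promoter windows of this length in the same table, the GC box was found in 32.7%, the E-box in 66.2%, GATAA in 22.6%, the AP-1 motif in 6.75%, TATAAA in 12.4% and the MEF2 consensus in 2.92%. The table had entries for 6 of the 10 members, and a match describes letters, not binding.

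Per length, the members spanned a wide range, and the order of their mean levels was the same in both groups. TPM were not scaled by TMM factors, so edited and control values here do not measure a change between groups. Dsp, Jup, Dsg2, Dsc2 and Ctnna3 had a higher mean TPM in edited hearts but a negative log2 change in the fit. Gja1 differed more in TPM than its fitted 1.07-fold. Desmin RNA led at 774 ± 63.4 TPM in edited and 782 ± 21.4 TPM in control hearts (SD, n = 3 each), followed by Gja1 at 454 ± 36.3 in edited and 395 ± 25.4 in control hearts. Their ranges were far apart. Dsp came next at 160.4 ± 11.7 TPM in edited and 158.2 ± 11.1 in control hearts, then Jup at 134.6 ± 8.63 in edited and 127.3 ± 6.16 in control hearts, and Pkp2 at 126.9 ± 5.86 in edited and 115.7 ± 3.98 in control hearts. Jup and Pkp2 overlapped in edited but not in control hearts. Cdh2 followed at 75.17 ± 6.37 TPM in edited and 79.15 ± 4.39 in control hearts, and Tjp1 at 49.21 ± 3.87 in edited and 44.61 ± 3.07 in control hearts. The lowest were Dsc2 (34.57 ± 4.11 in edited, 33.80 ± 2.24 in control), Dsg2 (32.39 ± 3.79 in edited, 31.02 ± 1.76 in control) and Ctnna3 (14.82 ± 1.20 in edited, 14.47 ± 1.11 in control). The ranges of Dsc2 and Dsg2 overlapped in both groups, though Dsc2 was the higher of the pair in each of the 6 libraries, while Ctnna3 stood below both in all 6 libraries.

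Edited 2 was the lowest edited library for 7 of the 10 and control 2 the highest control library for 7 of the 10. For Dsp, Dsg2, Dsc2, Cdh2, Gja1, Tjp1 and Ctnna3, edited 2 lay 0.083 (Dsp) to 0.191 (Dsc2) below the mean log2 CPM of its group. Des and Jup did the reverse. Des deviated by 0.137 in edited 2 and by -0.064 in control 2, and Jup by 0.103 in edited 2 and by -0.084 in control 2. Pkp2 followed neither course.

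**Figure D3:**
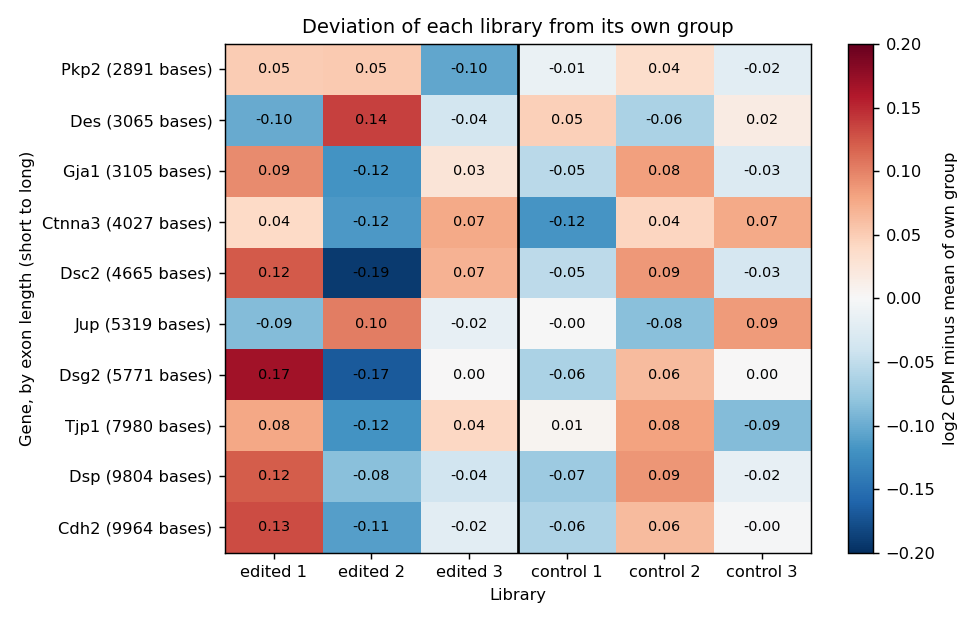
Log2 CPM of each disc gene in each library minus the mean of its own group (colour and printed value), with genes ordered by exon length and edited libraries left of control libraries. Edited 2 is low and control 2 high for Dsp, Dsg2, Dsc2, Cdh2, Gja1 and Tjp1, while Des and Jup show the opposite signs.

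Transcript length moved with the same libraries over all genes, though by less. Among 983 genes with a mean of at least 20 CPM and more than 8000 exon bases, the median deviation from the group mean was 0.044, -0.047 and 0.007 in edited 1, 2 and 3, and -0.017, 0.030 and -0.012 in control 1, 2 and 3. Among 1390 such genes of up to 2000 bases it was -0.031, 0.039 and -0.007 in edited hearts, and 0.034, -0.050 and 0.017 in control hearts. Long transcripts were thus slightly low in edited 2 and high in control 2, and short ones the reverse. Cdh2, Dsp and Tjp1 are the longest members, at 9964, 9804 and 7980 exon bases. Des, at 3065, is nearly the shortest, but Gja1, at 3105, followed the long genes and Jup, at 5319, did not. Dsc2, Dsg2 and Ctnna3, at 4665, 5771 and 4027 bases, deviated by -0.191, -0.168 and -0.115 in edited 2. The 1679 such genes of over 4000 and up to 6000 bases had a median of -0.016 there. With the length trend removed, an alternative chosen after the data were seen, Cdh2 passed the threshold (log2 -0.194, adjusted p = 0.0316) and the other 9 members did not.

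Other genes were then counted from lists related to junctions and filaments, which also hold keratins of simple epithelia and nuclear lamins. Of these listed genes 90 were tested and 16 passed, 8 higher and 8 lower. Over all 14879 tested genes 9.66% passed, 4.93% higher and 4.74% lower, and the counts of each list below are to be read against those shares. Within the members' range of mean level the split was less even, with 212 of 6208 genes higher and 489 lower. The median log2 change of the 90 listed genes was -0.026, beside 0.001 for all tested genes. The 16 calls came to 9 without edited 3, to 10 without control 1 and to 4 without control 3. With Myl7, an atrial marker, as a covariate 2 were called, Krt8 and Krt18, where only 126 of all 14879 tested genes were. Leaving out controls 1 and 3 leaves 1 control library, so calls there carry little weight.

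**Figure D4:**
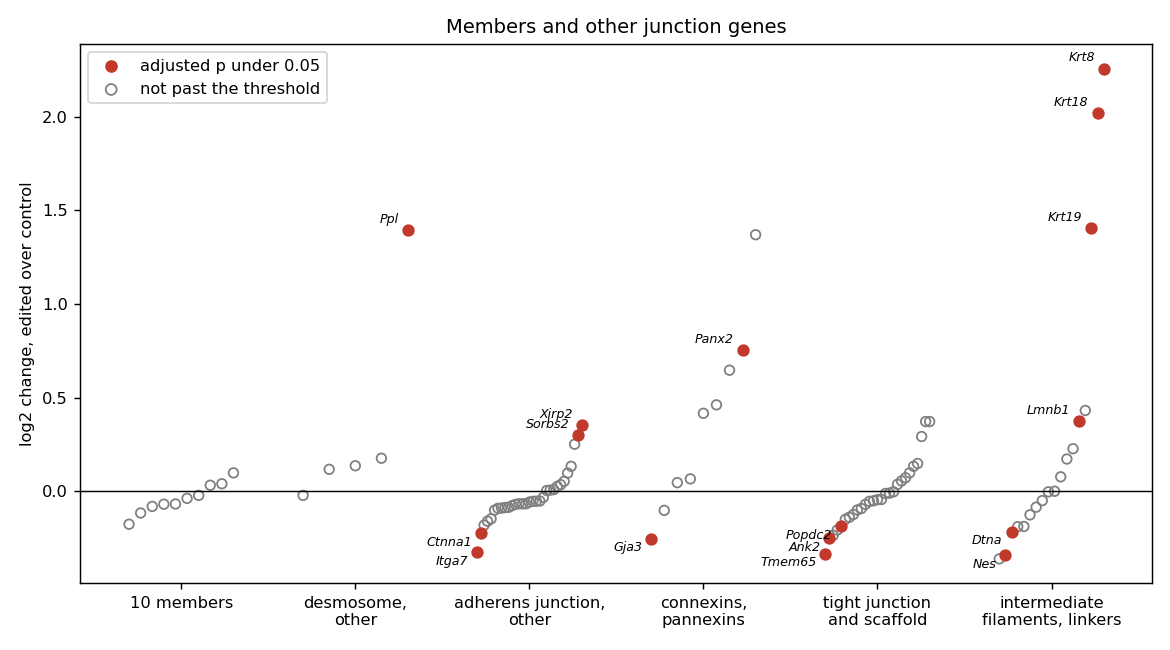
Log2 change, edited over control (vertical axis), of the 10 members and of the tested genes of 5 lists of other junction genes, one point per gene. Filled red points passed an adjusted p of 0.05 in edgeR and are named; none of the 10 members did, and the 3 keratins and Ppl lie between 1.393 and 2.257.

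In the rest of the desmosome list 1 of 5 tested genes rose and 0 fell (median log2 0.137). The riser was Ppl, which encodes periplakin, a plakin of epithelial desmosomes. It was at 2.81, 3.28 and 2.74 CPM in edited hearts, against 1.32, 1.16 and 0.888 CPM in control hearts (log2 1.39, SE 0.224, adjusted p = 0.00204, edgeR). Its call was lost with Myl7 as a covariate (adjusted p = 0.121) and with controls 1 and 3 left out (0.125). Perp, a tetraspan desmosome protein, was far more abundant, at 297.4 ± 8.29 CPM in edited and 270.5 ± 11.5 CPM in control hearts, and missed the threshold (0.130), as did Tmem43 (0.162) and Evpl (0.739). The desmogleins and desmocollins of skin, Dsg1a, Dsg1b, Dsg3, Dsc1 and Dsc3, and Pkp1 and Pkp3 did not pass the filter on low counts.

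Among other genes of the adherens junction and area composita, 2 of 31 rose and 2 fell (median log2 -0.057). Besides Ctnna1, the laminin receptor gene Itga7 fell, to 175 ± 16.2 CPM in edited hearts, against 219.0 ± 5.33 CPM in control hearts (log2 -0.32, SE 0.064, adjusted p = 0.00682, edgeR). Xirp2, a Xin-repeat actin-binding protein of the disc, rose to 149 ± 11.7 CPM in edited hearts, against 117 ± 6.10 CPM in control hearts (log2 0.36, SE 0.064, adjusted p = 0.00433). Sorbs2, an actin-linked adaptor, rose to 592 ± 66.1 CPM in edited hearts, against 481 ± 20 CPM in control hearts (log2 0.30, SE 0.074, adjusted p = 0.0255). Without control 3 the adjusted p was 0.0520 for Xirp2, 0.0621 for Itga7 and 0.147 for Sorbs2, and Sorbs2 also lost its call without edited 1 (0.0618), edited 3 (0.111), control 1 (0.0615) or control 2 (0.0880). Ctnnb1, beta-catenin, and Vcl, vinculin, did not pass the threshold.

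Of 9 connexin and pannexin genes tested, 1 rose and 1 fell (median log2 0.417). Panx2, a scarce pannexin transcript, rose to 3.99 ± 0.463 CPM in edited hearts, against 2.35 ± 0.438 CPM in control hearts (log2 0.75, SE 0.187, adjusted p = 0.0223, edgeR). Gja3, which encodes connexin 46, fell to 31.4 ± 1.48 CPM in edited hearts, against 37.5 ± 0.502 CPM in control hearts (log2 -0.25, SE 0.064, adjusted p = 0.0243). Both lost their call without edited 3 (adjusted p = 0.1 and 0.0939), control 1 (0.0966 and 0.0875) or control 3 (0.0885 and 0.0965), Panx2 given first, and with DESeq2 (0.0558 for each). Gja3 also lost its call with replicate number as a block (0.0601). Panx1 (adjusted p = 0.0639) and Gjc3 (0.0971) missed the threshold; both were called by limma voom with quality weights (0.0237 and 0.0472) and without edited 2 (0.0407 and 0.0161), and Gjc3 also with no filter (0.00432). Gja5, the connexin 40 gene of atrial and conducting muscle, was at 36.67, 35.06 and 50.65 CPM in edited hearts, against 22.43, 33.60 and 21.87 CPM in control hearts (adjusted p = 0.205). Control 2, the 1 control library rich in atrial markers, was also the control highest in Gja5, and without it Gja5 was called (adjusted p = 0.0394); the part of atrial tissue in these values was not tested.

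In the list of tight junction, scaffold and Popeye genes, 3 of 27 tested fell and 0 rose (median log2 -0.044). Tmem65, a membrane protein of the disc, fell to 160.1 ± 14.4 CPM in edited hearts, against 202 ± 8.94 CPM in control hearts (log2 -0.33, SE 0.066, adjusted p = 0.00695, edgeR). Popdc2, a cAMP-binding Popeye protein, fell to 582 ± 7.95 CPM in edited hearts, against 662 ± 8.54 CPM in control hearts (log2 -0.19, SE 0.047, adjusted p = 0.0252). Ank2, the ankyrin-B gene, fell to 116 ± 11.9 CPM in edited hearts, against 138 ± 5.13 CPM in control hearts (log2 -0.25, SE 0.069, adjusted p = 0.0386). All 3 lost their call without control 3 (adjusted p = 0.0576 for Tmem65, 0.145 for Popdc2 and 0.101 for Ank2). Popdc2 also lost it without edited 3 (0.102) or control 1 (0.104), and Ank2 without edited 2 (0.0594), edited 3 (0.105), control 1 (0.133) or control 2 (0.108). With upper-quartile scaling both Popdc2 and Ank2 were at 0.0559. With replicate number as a block Popdc2 was at 0.0961 and Ank2 at 0.0537. Dlg3, a scaffold gene, was not past the threshold (0.0903), but was without edited 1 (0.0249) and with no filter (0.0336).

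The list of intermediate filament and linker genes, without Des, moved in more than 1 direction, with 4 of 18 higher and 2 lower (median log2 -0.001). The risers included Krt8, Krt18 and Krt19, keratins of simple epithelia, all scarce in these hearts. Krt18 reached 5.55 ± 1.76 CPM in edited hearts, against 1.38 ± 0.321 CPM in control hearts (log2 2.02, SE 0.269, adjusted p = 0.00122, edgeR). Krt8 reached 2.43 ± 0.789 CPM in edited hearts, against 0.496 ± 0.360 CPM in control hearts (log2 2.26), and Krt19 3.13 ± 0.948 CPM in edited hearts, against 1.20 ± 0.209 CPM in control hearts (log2 1.40). Lmnb1, a nuclear lamin gene, rose to 63.7 ± 3.14 CPM in edited hearts, against 49.2 ± 7.71 CPM in control hearts (adjusted p = 0.0381). Nes, which encodes nestin, fell to 165 ± 10.3 CPM in edited hearts, against 209 ± 15.3 CPM in control hearts (adjusted p = 0.00548), and Dtna, a dystrobrevin gene, to 49.0 ± 1.70 CPM in edited hearts, against 56.9 ± 3.21 CPM in control hearts (adjusted p = 0.0398). Nes lost its call without control 3 (0.0612). Lmnb1 lost it without edited 1 (0.129), edited 2 (0.0874), edited 3 (0.125), control 2 (0.0971) or control 3 (0.175). Dtna lost its call without edited 3 (0.156), control 1 (0.0773), control 2 (0.133) or control 3 (0.124). It also did so with DESeq2 (0.0714), with upper-quartile scaling (0.0644) and with replicate number as a block (0.0927).

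Markers of the mesothelium, the epithelium that covers the heart, moved with the keratins and Ppl. Of 10 such markers, which include Krt8, Krt18 and Krt19, 8 rose and 1, Wt1, fell. Their summed level was 53.68, 62.26 and 36.02 CPM in edited 1, 2 and 3, against 29.43, 29.23 and 29.70 CPM in control 1, 2 and 3, and 0 of the 10 were without a count in every library. Msln, a defining marker, was at 11.34, 11.76 and 6.53 CPM in edited hearts, against 2.63, 2.79 and 2.45 CPM in control hearts. Edited 3 was the lowest edited library in Msln and in all 3 keratins. The part of mesothelial cells in these values was not tested.

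For the disc genes themselves, values of other tissues stood as follows. With Myl7 as a covariate 0 of the 10 were called, but only 126 of all 14879 tested genes were. Leaving out controls 1 and 3 left control 2 alone, and the members' log2 changes ran from -0.242 for Cdh2 to 0.059 for Jup. Control 2 was rich in Myl7, Nppa, Myl4, Sln and Dkk3, as the edited hearts were, and, unlike them, in Bmp10. With the covariate Jup stood at log2 0.087 (SE 0.081) and Tjp1 at -0.065 (SE 0.085), each opposite in sign to the fit without it. Summed endothelial markers ranged from 1703 to 1811 CPM in edited and from 1786 to 1830 CPM in control hearts, and summed fibroblast markers from 4061 to 5577 CPM in edited and from 3467 to 4143 CPM in control hearts. The part of these cell types in the members' values was not tested.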

How the data were processed

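RNA-seq was made from 6 mouse heart libraries, 3 edited and 3 control, grouped by their titles. The authors deposited raw read counts per gene, made on mm10; the submitters' processing notes name STAR, featureCounts, cutadapt and FastQC, with no versions. Strand setting and treatment of multi-mapping reads are not given in the sources used. Each library had a pair of deposited count columns with the same values (0 genes differed), and 1 was used. Replicates differed beyond sampling noise (chi-square per degree of freedom 3.95 to 14.4). Exon lengths and coordinates are those deposited with the counts; 1 listed gene, Afdn, was matched by its older symbol Mllt4.

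Genes were kept by filterByExpr (14879 of 35976) and scaled by TMM (factors 0.971 to 1.039). Edited was compared with control by edgeR 4.0.16's quasi-likelihood test (robust, group only, R 4.3.3), adjusted by Benjamini-Hochberg over all tested genes, with a threshold of 0.05; the steps were tested on simulated data. Intervals are 95%. Shares were compared by two-sided exact permutation tests. Named genes are the 10 members, Camk2d, and from each list up to 4 tested genes with the smallest p plus every call where a list has 6 or fewer calls. Others (Msln, Wt1, Gja5, Ctnnb1, Vcl) were chosen after their values were seen. Members and lists were chosen with earlier results of these data known. Alternatives were other scalings and filters, DESeq2 1.42.0, limma voom with sample quality weights (limma 3.58.1), a replicate block, Myl7 as a covariate, left-out libraries, leaving out mitochondrial and haemoglobin genes, and a length correction added after the data were seen.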

Additional observations from a re-analysis of the deposited data

How the results depend on the processing

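With all 10 members, 17 alternatives gave 170 estimates, from -0.244 to 0.157 on the log2 scale. Of these, 153 kept their direction and stayed uncalled, 6 passed the threshold (Cdh2 and Des, above) and 11 changed sign. Jup was at 0.003 after upper-quartile scaling, 0.087 in the fit with Myl7, 0.021 without edited 1, 0.022 without control 3 and 0.059 with controls 1 and 3 left out. Tjp1 was at -0.065 with the covariate, -0.002 without control 3 and -0.043 with controls 1 and 3 left out. Pkp2 was at -0.007 in that last setting, and without edited 2 Dsg2 was at 0.042 and Dsc2 at 0.020. With 1 library left out, Jup ran from -0.075 to 0.022, Dsg2 from -0.127 to 0.042, Dsc2 from -0.131 to 0.020 and Tjp1 from -0.002 to 0.097. The count of members called was 0, and became 1 with no filter, 2 with limma voom with quality weights, 1 with the length trend removed, and 0 to 1 when 1 library was left out. Over all tested genes the 1438 calls became 2239 with no filter, 2398 with limma voom with quality weights, 126 with the covariate, 82 with controls 1 and 3 left out, and 386 to 1661 with 1 library left out. The 16 calls among other junction genes became 2 with the covariate, 0 with controls 1 and 3 left out (edgeR, with 1 control library), and 4 to 18 with 1 library left out. Camk2d lost its call only with controls 1 and 3 left out (log2 -0.615, adjusted p = 0.0964). The Gja1 share difference ran from -1.05 to 0.590 percentage points with 1 library left out, and was 0.0383 without control 2. The Ctnna3 share difference ran from 0.183 to 0.376. The cause of these shifts was not tested.

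Libraries of the same replicate number did not deviate alike. Their deviations from the group mean correlated at -0.096, -0.251 and -0.216 over 7356 genes for numbers 1, 2 and 3. A trend across a whole library, such as that on transcript length, could hide a pairing, so these values cannot exclude one. The replicate block gave 0 called members, 1077 calls over all genes and 11 among other junction genes, with Camk2d at log2 -0.641. In exact sign-flip tests of 3 pairs, the share differences were -0.228 percentage points for Gja1 (p = 0.75) and 0.290 for Ctnna3 (p = 0.25). Such a test of 3 pairs cannot go below 0.25, its value when all pairs differ in the same direction, as they did for Ctnna3. With 3 libraries a group, the members' median SE was 0.063 on the log2 scale.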
